A study of Mus musculus with 9 samples.

Results

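The genes described here are targets of the transcription factor p53, together with *Trp53*, the gene that encodes p53 itself, in mouse embryonic stem cells (mESC) exposed to nitric oxide. The set was given as 40 gene symbols and was matched by gene name to the 29069 genes of the deposited expression table, where 39 of the 40 had a row. *Pidd1* was not analysed here. All 39 had a mean above 5 over the 9 samples, the minimum used for testing, as did 18156 genes of the table. They were sorted by textbook role into 6 genes of the p53 feedback loop and family, 8 genes of arrest and growth control, 14 apoptosis genes (of which 13 were measured), 5 genes of DNA repair and nucleotide supply, and 7 genes of metabolism, transport and immunity.

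The samples were total RNA-Seq libraries of mESC of the D3 line, adapted to growth without feeder cells and kept for 24 h in 1 of 3 media, with 3 replicates per medium and 1 dish per sample. Ground state medium (GS) was the serum-free N2B27 medium with 1 μM of the MEK inhibitor PD0325901, 3 μM of the GSK-3 inhibitor CHIR99021 and 20 ng/mL LIF. Differentiation medium (DM) held 10% fetal bovine serum and neither inhibitors nor LIF, and NO medium was DM with 250 μM DETA/NO, a donor that gives off nitric oxide in solution. NO vs DM therefore differed by the donor alone, while DM vs GS and NO vs GS also differed by base medium, serum, inhibitors and LIF. D3 is a single cell line. The study's general note on statistics speaks of independent experiments, but neither the labels nor the sequencing methods say that the 3 dishes of a medium were separate cultures, so the p-values measure the spread between these samples, which may be technical.

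p53 is a transcription factor that is kept at a low level by the ubiquitin ligase Mdm2, which is itself a p53 target, and is stabilised when DNA is damaged or the cell is stressed. Its targets halt the cell cycle, start apoptosis, repair DNA or turn p53 off again. Much of this control acts on the p53 protein, which RNA-Seq does not measure. The paper reports that DETA/NO stabilised p53 and raised its acetylation, which the RNA values below do not address. Embryonic stem cells are known for high levels of p53 and for a response in which arrest is weak and differentiation or apoptosis is common.

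The deposited values are read counts divided by a size factor per sample and rounded, and are called normalised counts below. They summed to between 18290445 and 20508679 per sample, and the spacing of low values gave an estimated depth of 14309000 to 27085000 counted reads. All 10 mESC markers were expressed in every sample, and their normalised counts summed to between 96077 and 98758 in GS, between 94683 and 104961 in DM and between 57065 and 93004 in NO. The lowest sum belonged to NO replicate 2, in which *Pou5f1* read 4276 normalised counts against 8983 and 9978 in the other NO replicates. *Sox2* went the other way, with 3122 in that library against 2566 and 2749. Of 10 fibroblast markers, 6 were above the minimum, and their list summed to 355 to 536 in GS, 439 to 477 in DM and 418 to 586 in NO. Single genes of that list moved both ways: *Thy1* read 59 to 60 in GS, 168 to 211 in DM and 158 to 176 in NO, *Pdgfrb* read 219 to 378, 163 to 216 and 110 to 175, and *Postn* and *Lum* stayed at 3 or less. In bulk RNA, fewer cells of a type and less RNA per cell cannot be told apart.

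p53 binds DNA at a response element made of a pair of 10-letter arms, each with the core CNNG, and the consensus reads the same on both strands. RefSeq promoter windows on GRCm38.p6, from 250 bases before to 50 bases after the annotated start, matched 31 of the 40 genes in 45 windows. An element with at most 2 letters off the consensus and at most 1 base between its arms lay in 5 of these 45 windows (11.1%) and in 0.682% of all 32851 windows of the same length. By gene, 5 of 31 (16.1%) held such an element against 0.807% of all genes with a window, and 10 of 31 (32.3%) held at least 1 arm with no letter off against 9.55%. The 5 elements are printed 5′ to 3′ on the strand of the gene, with the element in capitals, because their genes include members of the feedback, arrest and apoptosis classes. Each printed stretch holds the element and 20 bases on either side of it. The stretches lay on the minus strand at chr11:40755442-40755501 for *Ccng1*, chr7:45467059-45467119 for *Bax*, chr8:22185983-22186042 for *Ckap2* and chr4:154097200-154097259 for *Trp73*, and on the plus strand at chr17:29090908-29090967 for *Cdkn1a*.
Ccng1: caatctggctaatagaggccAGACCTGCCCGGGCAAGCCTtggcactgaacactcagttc
Cdkn1a: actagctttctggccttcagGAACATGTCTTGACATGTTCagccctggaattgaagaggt
Bax: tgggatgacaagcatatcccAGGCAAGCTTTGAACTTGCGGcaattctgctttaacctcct
Ckap2: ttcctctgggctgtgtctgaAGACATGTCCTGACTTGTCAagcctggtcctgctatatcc
Trp73: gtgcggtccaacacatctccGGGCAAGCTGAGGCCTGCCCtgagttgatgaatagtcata
The elements of *Ccng1* and *Cdkn1a* were 1 letter off the consensus, and those of *Bax*, *Ckap2* and *Trp73* were 2 letters off. The *Bax* element was the only 1 of the 5 with a base between its arms. They began 195 bases before the annotated start in *Ccng1*, 51 in *Cdkn1a*, 201 in *Bax*, 203 in *Ckap2* and 66 in *Trp73*, where the start was an inner one. A match describes these letters and does not show that p53 binds there.

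Addition of the donor to DM went with higher RNA of most p53 targets. In NO vs DM, 24 of 39 members rose and 0 fell at an adjusted p under 0.05 (limma over all 18156 genes, Benjamini-Hochberg), where 9.01% of all genes tested rose and 5.24% fell. Of these, 17 rose by at least 2-fold, as 6.78% of all genes did. The median log2 difference of the members was 0.90, against 0.00 over all genes. The members were chosen with earlier results of these data known, so the excess over all genes is not an independent test. Judged by the adjusted p alone, 16 of the 24 calls held under every alternative setting and with any 1 sample left out. They were those of *Mdm2*, *Ccng1*, *Trp73*, *Ptp4a3*, *Cdkn1a*, *Btg2*, *Plk2*, *Fas*, *Perp*, *Trp53inp1*, *Ercc5*, *Polk*, *Tap1*, *Dcxr*, *Ephx1* and *Slc19a2*. At an unadjusted p under 0.05, 28 members were higher and 1, *Trp53*, was lower. The share of all genes at that threshold was not computed, so these 2 counts are not read as a result about the members.

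Most members also rose against GS. In NO vs GS, 27 of 39 members rose and 0 fell, where 13.4% of all genes rose and 6.64% fell, and 16 rose by at least 2-fold, as 10.1% of all genes did. At an unadjusted p under 0.05 the counts were 31 higher and 1 lower, *Sesn1*, again without the share of all genes. The median log2 difference of the members was 0.91 and that of all genes was -0.02. The same limit from the choice of members holds here. NO vs DM and NO vs GS share the NO samples, so their values are given side by side and not as independent evidence. Counted by member, 21 were higher in NO than in both other media, 6 than in GS only (*Ak1*, *Bbc3*, *Def6*, *Gdf15*, *Plk3* and *Pmaip1*), 3 than in DM only (*Cdkn1a*, *Fbxw7* and *Phlda3*), and 9 passed in neither comparison (*Aen*, *Bax*, *Ddb2*, *Ei24*, *Rrm2b*, *Sesn1*, *Trp53*, *Xpc* and *Zmat3*). The share of all genes with each pattern was not computed, so these counts only sort the members.

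Release from the ground state without the donor changed 1 member in the fit of all 3 media and 5 when the 6 GS and DM samples were fitted alone. In the fit of all 3 media *Cdkn1a* fell, by more than 2-fold, and 0 members rose, where 2.32% of all genes fell, 1.27% did so by 2-fold, and 4.37% rose. The median log2 difference of the members was 0.03. At an unadjusted p under 0.05, 5 members were higher in DM (*Ak1*, *Plk3*, *Trp73*, *Ptp4a3* and *Psrc1*) and *Plk2* was lower in addition to *Cdkn1a*. Without the share of all genes, these counts are not read as a result about the members. Fitted without the NO samples, *Trp73*, *Ptp4a3* and *Plk3* rose (adjusted p = 0.0195, 0.0359 and 0.0155) and *Plk2* fell (0.0028) beside *Cdkn1a*. More genes of the whole table passed in that fit too. It called 632 higher and 276 lower by 2-fold, against 533 and 230 in the fit of all 3 media. The share of all genes past the adjusted p alone was not computed for it. *Plk3*, *Trp73* and *Plk2* also passed when NO replicate 2 was left out, with adjusted p = 0.0104, 0.0144 and 0.0111, and *Plk3* and *Plk2* also without NO replicate 1, with 0.0264 and 0.018. The NO samples entered the DM vs GS tests of the 3-media fit through the shared estimate of the spread. They also entered both fits through the minimum mean, which was taken over all 9 samples and set the genes tested.

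**Figure D1:**
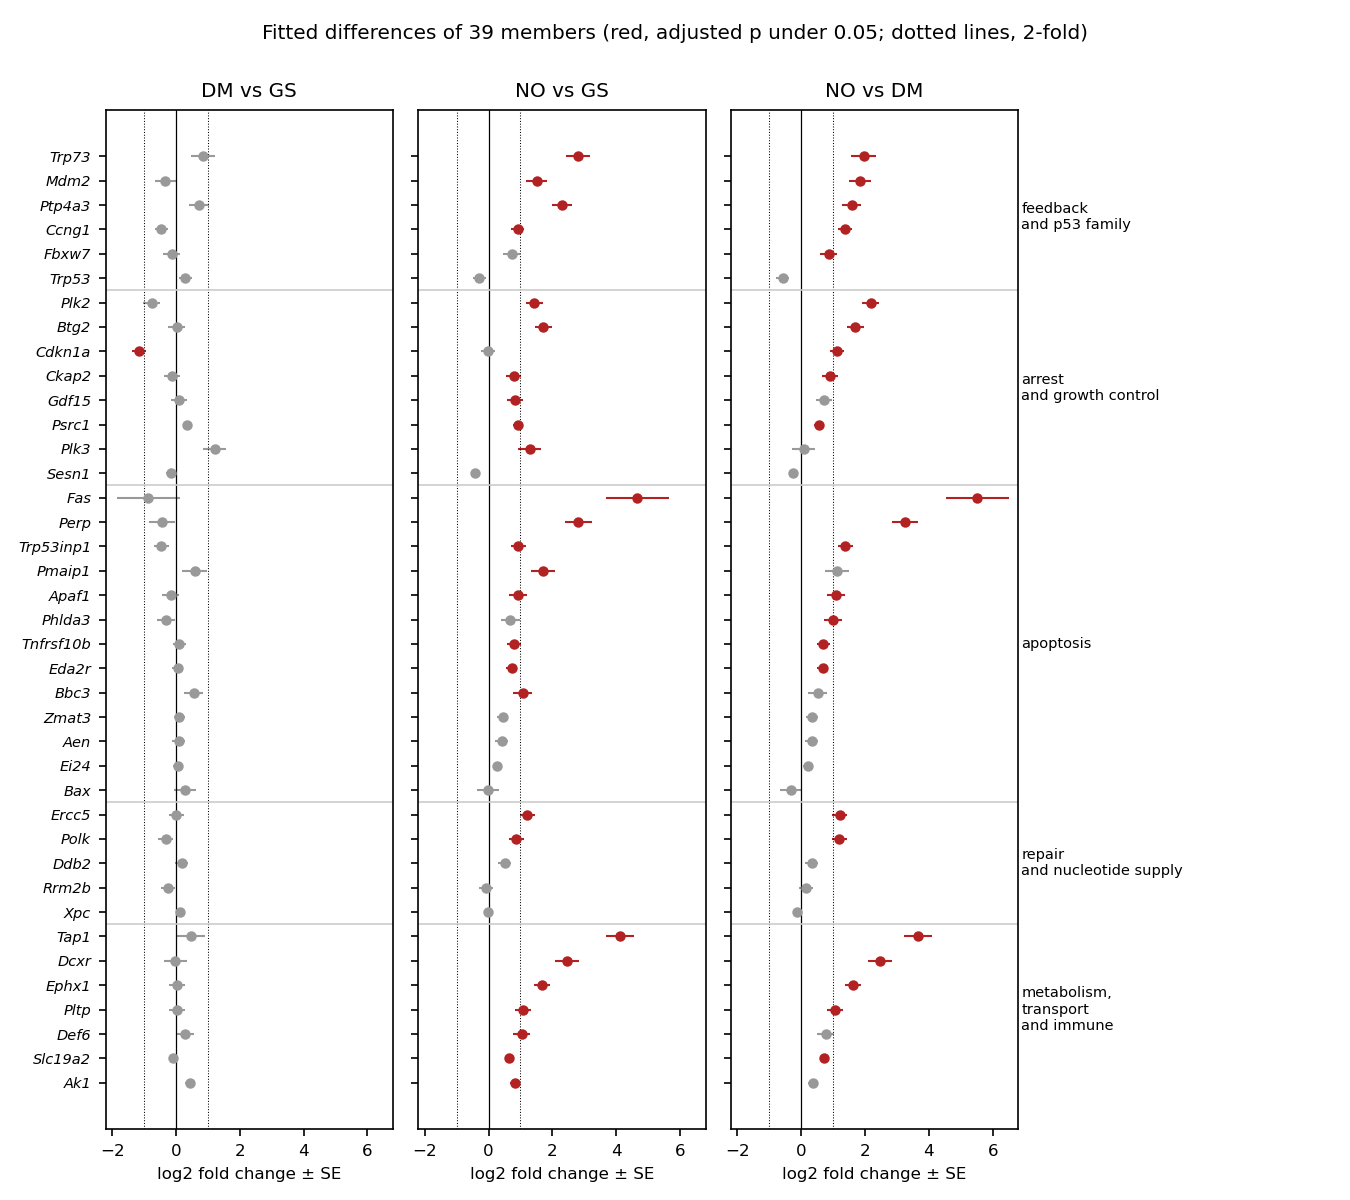
Fitted log2 difference (x axis, point) with its SE (bar) for each of the 39 measured members (y axis, grouped by class) in DM vs GS, NO vs GS and NO vs DM; red marks an adjusted p under 0.05 and dotted lines mark 2-fold. Red points lie to the right of 0 for 27 members in NO vs GS and for 24 in NO vs DM, while in DM vs GS *Cdkn1a* is the 1 red point and lies to the left.

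In the feedback class, 5 of 6 genes rose in NO vs DM and 4 of 6 in NO vs GS, with a median log2 difference of 1.47 and 1.21. *Trp53* (chr11:69580359-69591873 on GRCm38, plus strand) was not among them. In normalised counts it read 9945, 10446 and 8032 in GS, 11226, 9449 and 14531 in DM and 9346, 5776 and 8543 in NO, in the order of replicates 1 to 3 that is used throughout. The 3 NO values lay below the 3 DM values, with a log2 difference of -0.58 ± 0.21 (SE) that did not pass (adjusted p = 0.0861), and NO overlapped GS (-0.29 ± 0.21, adjusted p = 0.366). Without NO replicate 1 the NO vs DM difference of *Trp53* passed, at an adjusted p of 0.0375, and it did so in a fit of the 6 DM and NO samples with the replicate number as a block (0.0416), an alternative chosen after seeing the data, while the block in the fit of all 9 samples gave 0.0871. A processed pseudogene of *Trp53* exists, and reads that mapped to several places were not counted.

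*Mdm2* (chr10:117688875-117710758, minus strand), the ubiquitin ligase that holds p53 down, read 2408, 2724 and 2889 in GS, 2409, 2199 and 1803 in DM and 4420, 15166 and 6474 in NO. All NO values were above all 6 others. *Mdm2* rose by 1.83 ± 0.34 in NO vs DM (adjusted p = 0.00725) and by 1.51 ± 0.34 in NO vs GS (adjusted p = 0.0101). The ratio of *Mdm2* to *Trp53* counts within a sample was 0.242, 0.261 and 0.36 in GS and 0.215, 0.233 and 0.124 in DM. In NO the ratio was 0.473, 2.63 and 0.758, so that it was above all 6 other samples in each NO replicate and above 1 in replicate 2 alone.

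*Ccng1*, which encodes cyclin G and acts on Mdm2 through a phosphatase, read 5284, 5762 and 7151 in GS, 4815, 4784 and 3676 in DM and 8339, 15078 and 11496 in NO. The 3 media did not overlap, with DM lowest and NO highest, though its DM vs GS difference of -0.45 did not pass (adjusted p = 0.261). The share of all genes in which DM and GS did not overlap was not computed. It rose by 1.36 ± 0.21 in NO vs DM (adjusted p = 0.00375) and by 0.91 ± 0.21 in NO vs GS (adjusted p = 0.0120), the second of which was lost without GS replicate 1 (0.0535). *Trp73*, which encodes the p53 relative p73, read 64, 71 and 62 in GS, 116, 117 and 122 in DM and 261, 1015 and 370 in NO. Its levels also fell into 3 separate ranges, here with GS lowest. *Trp73* rose by 1.95 ± 0.38 in NO vs DM (adjusted p = 0.00916) and by 2.80 ± 0.38 in NO vs GS (adjusted p = 0.00103), and its DM vs GS difference of 0.84 did not pass. Its exons overlap those of the antisense gene *Trp73os*, and since use of the strand was not stated, reads of the pair cannot be told apart.

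*Ptp4a3*, a phosphatase gene, read 986, 892 and 664 in GS, 1244, 1248 and 1663 in DM and 2340, 6625 and 4444 in NO. The NO values were again above all others, and *Ptp4a3* rose by 1.58 ± 0.31 in NO vs DM (adjusted p = 0.00903) and by 2.29 ± 0.31 in NO vs GS (adjusted p = 0.000944). *Fbxw7*, the substrate receptor of a ubiquitin ligase that degrades growth regulators, averaged 1137 ± 113 in GS, 1044 ± 195 in DM and 1992 ± 878 in NO, with the SD of n = 3 replicates. Its NO vs DM difference of 0.86 passed narrowly (limma adjusted p = 0.0491). That call was lost in 8 of 9 fits with 1 sample left out, all but the fit without NO replicate 1, with adjusted p up to 0.141, while its NO vs GS difference of 0.72 passed without NO replicate 1 (0.00783) and with samples scaled to equal totals (0.0425).

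**Figure D2:**
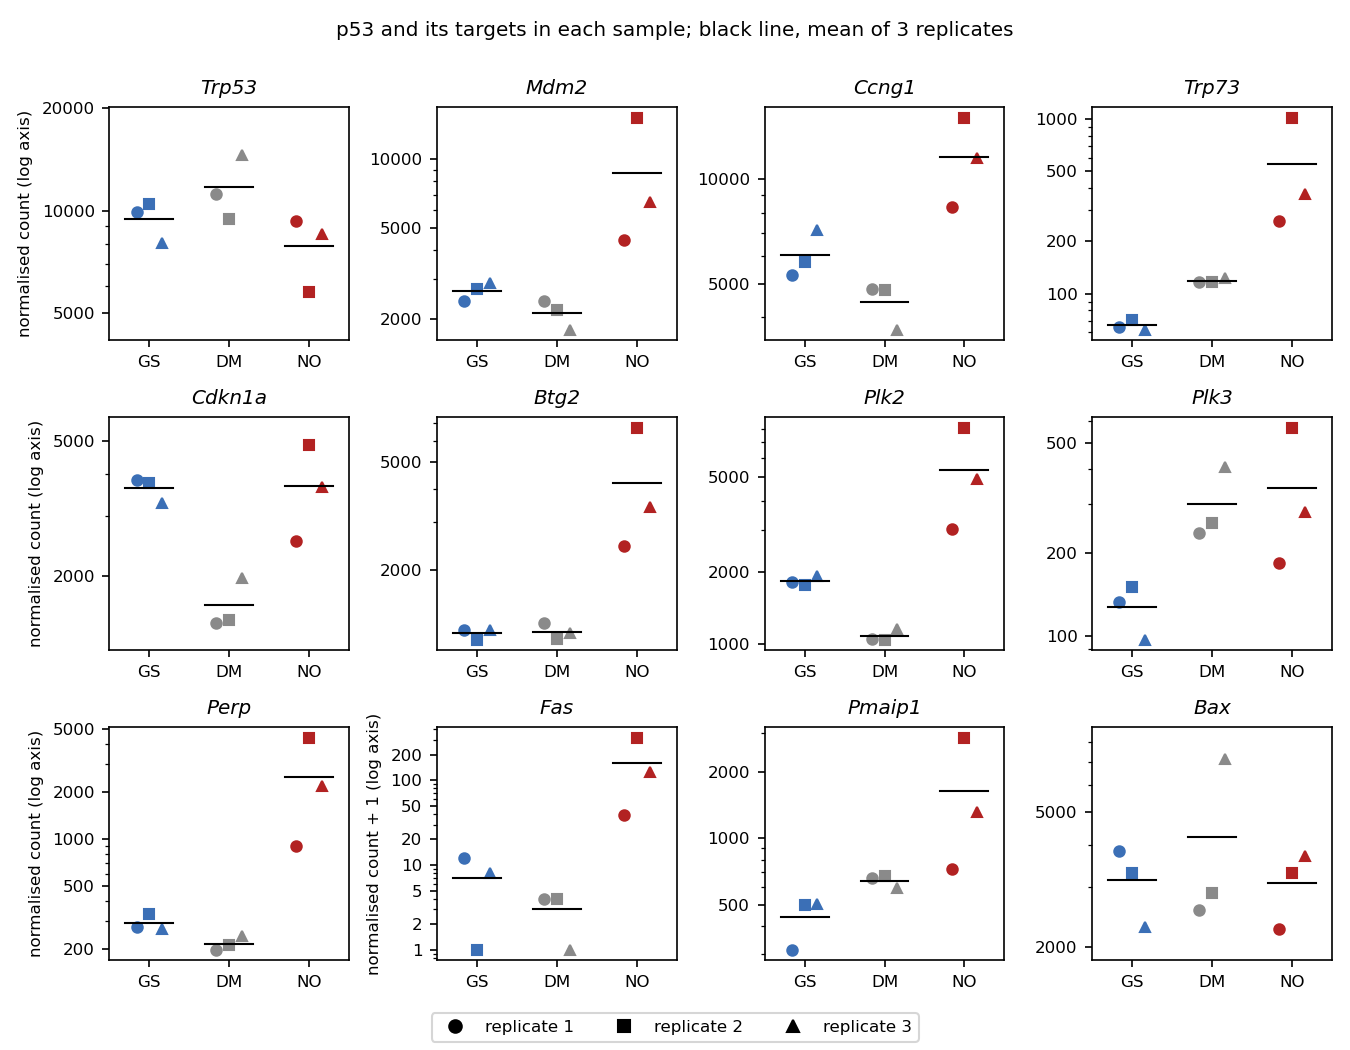
Normalised counts (y axis, log scale, and count + 1 for *Fas*) of 12 genes in each sample, by medium (x axis), with the shape of a point giving the replicate number and the black line the mean of 3 replicates. Replicate 2 is the highest NO point in every panel but those of *Trp53* and *Bax*.

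Among the 8 arrest and growth control genes, 5 rose in NO vs DM and 6 in NO vs GS, with median log2 differences of 0.81 and 0.87. *Cdkn1a* (chr17:29090976-29100727, plus strand) encodes p21, the inhibitor of cyclin-dependent kinases through which p53 arrests the cycle. It read 3839, 3758 and 3288 in GS, 1462, 1487 and 1976 in DM and 2535, 4859 and 3663 in NO. DM lay below both other media without overlap, and the GS range lay inside the NO range. In DM vs GS *Cdkn1a* fell by 1.15 ± 0.21 (log2, adjusted p = 0.00710), and it rose by 1.13 ± 0.21 in NO vs DM (adjusted p = 0.00801), while NO vs GS gave -0.02 ± 0.21 (adjusted p = 0.951). It was the only 1 of the 17 members past 2-fold in NO vs DM whose NO vs GS difference was below 0. An annotated gene on the opposite strand overlaps its exons.

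*Btg2*, an antiproliferative gene, read 1199, 1105 and 1203 in GS, 1271, 1117 and 1168 in DM and 2463, 6717 and 3423 in NO. GS and DM overlapped, and every NO value was above both. It rose by 1.70 ± 0.28 in NO vs DM (adjusted p = 0.00437) and by 1.72 ± 0.28 in NO vs GS (adjusted p = 0.00190). *Plk2*, a polo-like kinase gene, read 1820, 1774 and 1930 in GS, 1057, 1046 and 1160 in DM and 3031, 8071 and 4941 in NO. Like *Ccng1* it was lowest in DM and highest in NO, without overlap. *Plk2* rose by 2.19 ± 0.26 in NO vs DM (adjusted p = 0.00188) and by 1.43 ± 0.26 in NO vs GS (adjusted p = 0.00400), the highest value of the class in NO vs DM.

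*Plk3*, its relative, behaved otherwise. It read 133, 151 and 97 in GS, 236, 256 and 407 in DM and 184, 566 and 281 in NO. The GS values were the lowest, and the DM range lay inside the NO range. *Plk3* rose in NO vs GS (1.30 ± 0.36, adjusted p = 0.0271), gave 0.08 ± 0.36 in NO vs DM (adjusted p = 0.901), and its DM vs GS difference of 1.21 did not pass (adjusted p = 0.0719). The NO vs GS call was lost without any 1 of the GS replicates (0.0646, 0.0508 and 0.108 for replicates 1, 2 and 3) and without NO replicates 2 or 3 (0.0693 and 0.059). Exons of *Plk3* overlap those of *Tctex1d4* on the other strand.

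*Ckap2*, a cytoskeleton gene, averaged 2503 ± 265 in GS, 2297 ± 143 in DM and 4543 ± 1860 in NO, and *Psrc1*, a spindle gene, 3441 ± 218, 4425 ± 334 and 6531 ± 1082 (SD, n = 3). Both rose in NO vs DM (0.90 and 0.55 on the log2 scale) and in NO vs GS (0.78 and 0.91). The NO vs DM call of *Ckap2* was lost without any 1 of the DM samples or without NO replicates 2 or 3, with adjusted p up to 0.0868, and its NO vs GS call in 7 of 9 fits with 1 sample left out, all but those without DM replicate 3 or NO replicate 1, with adjusted p up to 0.12. For *Psrc1* the NO vs DM call was lost without GS replicate 2, DM replicates 1 or 2, or NO replicates 2 or 3, with adjusted p up to 0.103. *Gdf15*, a secreted growth factor of the stress response, averaged 183 ± 25 in GS, 201 ± 66 in DM and 329 ± 85 in NO and rose in NO vs GS (0.82, adjusted p = 0.039), but lost that call in 6 of 9 fits, all but those without DM replicates 1 or 3 or NO replicate 1, with adjusted p up to 0.137. *Sesn1*, a sestrin gene that restrains growth signalling, was the member with the lowest value in NO vs GS: it averaged 742 ± 92 in GS, 660 ± 14 in DM and 555 ± 37 in NO, and its difference of -0.41 in NO vs GS did not pass (adjusted p = 0.0533, and 0.0477 without NO replicate 1). *Gdf15* also passed in NO vs DM without DM replicate 3 or NO replicate 1 (0.0331 and 0.0374).

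Of the 13 measured apoptosis genes, 7 rose in NO vs DM and 8 in NO vs GS, with median log2 differences of 0.69 and 0.80. The highest differences in both NO comparisons were those of *Fas* and *Perp*. *Fas* (chr19:34290666-34327772, plus strand) encodes a death receptor and read 11, 0 and 7 in GS, 3, 3 and 0 in DM and 38, 317 and 123 in NO. It was near the limit of detection in GS and DM, and every NO value was above all others. With a mean of 6 in GS and 2 in DM, *Fas* passed the minimum mean through its NO values. Its calls, which are part of the counts above, are therefore not independent of that filter. *Fas* rose in NO vs DM (5.52 ± 0.99, adjusted p = 0.00646) and in NO vs GS (4.66 ± 0.99, adjusted p = 0.00774), but the size of these log2 differences depended on the pseudocount, from 4.15 with a pseudocount of 5 to 5.97 with 0.5 in NO vs DM. It also moved by more than 1.5 times when a sample was left out, to 4.85 without DM replicate 3, 6.30 without NO replicate 1 and 4.79 without NO replicate 2 in NO vs DM, and to 5.35 and 3.56 without GS replicates 1 and 2 and 5.44 and 3.92 without NO replicates 1 and 2 in NO vs GS.

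*Perp* (chr10:18845020-18857073, plus strand), a membrane protein gene of p53-driven apoptosis and of cell junctions, read 274, 333 and 269 in GS, 197, 210 and 241 in DM and 901, 4411 and 2165 in NO. The lowest NO value was 4.17 times the DM mean. The DM values lay below those of GS, but the DM vs GS difference of -0.43 did not pass (adjusted p = 0.623). *Perp* rose by 3.25 ± 0.41 in NO vs DM (adjusted p = 0.00195) and by 2.81 ± 0.41 in NO vs GS (adjusted p = 0.00130), and by 3.84 and 3.41 without NO replicate 1. *Trp53inp1*, a p53-induced nuclear protein gene, read 6124, 6156 and 8056 in GS, 5508, 5450 and 3910 in DM and 9356, 18380 and 12154 in NO. It had the order of *Ccng1*, with DM lowest and NO highest, and its DM vs GS difference of -0.46 did not pass either (adjusted p = 0.312). *Trp53inp1* rose by 1.38 ± 0.24 in NO vs DM (adjusted p = 0.00531) and by 0.93 ± 0.24 in NO vs GS (adjusted p = 0.0178), the latter lost without GS replicates 1 or 2 (0.0678 and 0.0707).

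The mitochondrial arm of apoptosis moved less evenly. *Bbc3*, which encodes Puma, and *Pmaip1*, which encodes Noxa, are sensors that free Bax to open mitochondria, and *Apaf1* builds the apoptosome that follows. *Bbc3* read 248, 181 and 188 in GS, 245, 336 and 324 in DM and 290, 739 and 373 in NO. NO was above GS but overlapped DM, and *Bbc3* rose in NO vs GS (1.08 ± 0.30, adjusted p = 0.0260), a call lost without GS replicates 2 or 3 or NO replicate 2 (0.0921, 0.0892 and 0.0524), while NO vs DM gave 0.53 ± 0.30 (adjusted p = 0.251). *Pmaip1* read 312, 497 and 505 in GS, 660, 676 and 593 in DM and 727, 2857 and 1321 in NO. Its 3 media did not overlap, in the order GS, DM and NO, though the DM vs GS difference of 0.58 did not pass (adjusted p = 0.438). *Pmaip1* rose in NO vs GS (1.71 ± 0.38, adjusted p = 0.00973), and NO vs DM gave 1.12 ± 0.38, which did not pass (adjusted p = 0.0687) but did so with the replicate number as a block (0.0352) and without NO replicate 1 (0.00323).

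*Bax* (chr7:45461697-45466898, minus strand), the pore-forming effector, read 3846, 3318 and 2295 in GS, 2569, 2882 and 7168 in DM and 2268, 3303 and 3717 in NO. The media overlapped, and the highest value was that of DM replicate 3. *Bax* gave -0.31 ± 0.35 in NO vs DM (adjusted p = 0.582) and -0.02 ± 0.35 in NO vs GS (adjusted p = 0.969), and its promoter window held the element printed above. An annotated gene on the same strand overlaps its exons, and reads assigned to both were not counted. *Apaf1* read 1978, 2000 and 2072 in GS, 1962, 2121 and 1398 in DM and 2722, 6515 and 3176 in NO. NO was above both other media, and *Apaf1* rose by 1.09 ± 0.27 in NO vs DM (adjusted p = 0.0242) and by 0.93 ± 0.27 in NO vs GS (adjusted p = 0.0349). The first call was lost without DM replicates 1 or 3 (0.0571 and 0.0793), and the second without any 1 of the GS replicates (0.0934, 0.0951 and 0.0907) or NO replicate 2 (0.0594).

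The other members of the class moved by less than 2-fold. *Tnfrsf10b*, the receptor of the death ligand TRAIL, averaged 704 ± 50 in GS, 763 ± 113 in DM and 1273 ± 446 in NO. It rose by 0.69 in NO vs DM (limma adjusted p = 0.0497), which the block took to 0.0679 and 8 of 9 fits with 1 sample left out took as far as 0.148, the exception being the fit without NO replicate 1. It rose by 0.80 in NO vs GS, a call lost without GS replicates 2 or 3 (0.0778 and 0.0727). *Eda2r*, a receptor of the same family, averaged 1485 ± 224, 1537 ± 152 and 2478 ± 553 and rose by 0.67 and 0.73 in NO vs DM and NO vs GS. The *Eda2r* calls were lost without any 1 of the DM samples or NO replicates 2 or 3 (adjusted p up to 0.0804) and without GS replicates 1 or 2 (0.0618 and 0.055). *Phlda3*, an inhibitor of the survival kinase Akt, averaged 1199 ± 191, 962 ± 125 and 2081 ± 1051 and rose by 1.00 in NO vs DM (adjusted p = 0.0425), just under the 2-fold line before rounding, a call lost in 8 of 9 fits, all but that without NO replicate 1, with adjusted p up to 0.121. *Zmat3*, an RNA-binding protein gene, *Aen*, a nuclease gene, and *Ei24*, a gene of the endoplasmic reticulum, gave 0.34, 0.32 and 0.20 in NO vs DM and did not pass in either NO comparison. Without NO replicate 1, *Aen* passed in both NO comparisons (0.0352 and 0.0169), and *Zmat3* and *Phlda3* passed in NO vs GS (0.0434 and 0.00659).

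Of the 5 repair and nucleotide supply genes, 2 rose in each NO comparison, with a median log2 difference of 0.33 in NO vs DM and 0.50 in NO vs GS. *Ercc5* encodes the nuclease that cuts beside a lesion in nucleotide excision repair and read 729, 687 and 814 in GS, 746, 834 and 677 in DM and 1200, 2721 and 1571 in NO. GS and DM overlapped and NO was above both. *Ercc5* rose by 1.20 ± 0.24 in NO vs DM (adjusted p = 0.0102) and by 1.22 ± 0.24 in NO vs GS (adjusted p = 0.00564). *Polk*, a polymerase gene of synthesis across damaged bases, read 570, 628 and 721 in GS, 573, 582 and 392 in DM and 883, 1719 and 1033 in NO. NO was again above both, and *Polk* rose by 1.19 ± 0.24 in NO vs DM (adjusted p = 0.0102) and by 0.87 ± 0.24 in NO vs GS (adjusted p = 0.0266), a call lost without any 1 of the GS replicates (0.0921, 0.0796 and 0.0531) or NO replicate 2 (0.0674).

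The damage sensors of excision repair did not pass. *Ddb2* averaged 204 ± 27 in GS, 231 ± 39 in DM and 292 ± 60 in NO, with 0.33 in NO vs DM, and passed in NO vs GS only without NO replicate 2 (0.0402). *Xpc* averaged 788 ± 28, 864 ± 43 and 787 ± 29 and gave -0.13 in NO vs DM. *Rrm2b*, the p53-controlled subunit of ribonucleotide reductase, averaged 191 ± 28, 163 ± 40 and 179 ± 22 and gave 0.15. The 95% intervals of these NO vs DM differences ran from -0.12 to 0.78 for *Ddb2*, from -0.40 to 0.13 for *Xpc* and from -0.32 to 0.62 for *Rrm2b*. Exons of *Ddb2* overlap *Acp2* and those of *Rrm2b* an uncharacterised gene, both on the opposite strand.

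All 7 genes of metabolism, transport and immunity rose in NO vs GS and 5 of 7 in NO vs DM, with median log2 differences of 1.08 and 1.05. *Tap1* (chr17:34187553-34197225, plus strand), the transporter that carries peptides to class I histocompatibility molecules, read 89, 51 and 67 in GS, 88, 78 and 120 in DM and 573, 2707 and 1082 in NO. The lowest NO value was 6.01 times the DM mean, and the *Tap1* difference was the largest of the 39 members after that of *Fas*. It rose by 3.65 ± 0.44 in NO vs DM (adjusted p = 0.00188) and by 4.12 ± 0.44 in NO vs GS (adjusted p = 0.000438), and by 3.06 and 3.53 without NO replicate 2. Its exons overlap those of *Psmb9* on the opposite strand.

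*Dcxr*, a carbonyl reductase gene, read 384, 394 and 290 in GS, 265, 301 and 532 in DM and 1007, 3201 and 2298 in NO. *Ephx1*, which encodes an epoxide hydrolase, read 757, 537 and 636 in GS, 592, 579 and 801 in DM and 1370, 2999 and 2002 in NO. In both genes GS and DM overlapped and NO stood above. *Dcxr* rose by 2.48 ± 0.37 in NO vs DM (adjusted p = 0.00324) and by 2.46 ± 0.37 in NO vs GS (adjusted p = 0.00145), and *Ephx1* by 1.63 ± 0.25 (adjusted p = 0.00371) and 1.66 ± 0.25 (adjusted p = 0.00150). *Pltp*, the phospholipid transfer protein gene, read 1461, 1303 and 1209 in GS, 1199, 1152 and 1765 in DM and 1837, 4066 and 2892 in NO. NO was above all other values, with a log2 difference of 1.05 ± 0.26 in NO vs DM (adjusted p = 0.0214) and 1.08 ± 0.26 in NO vs GS (adjusted p = 0.0130). The calls of *Pltp* were lost without DM replicates 1 or 2 or NO replicates 2 or 3 (0.0745, 0.0757, 0.0564 and 0.0655) and, in NO vs GS, without GS replicate 3 (0.057).

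*Def6* read 675, 775 and 632 in GS, 829, 937 and 767 in DM and 899, 2322 and 1394 in NO. NO overlapped DM in its lowest value, and *Def6* rose in NO vs GS (1.04 ± 0.27, adjusted p = 0.0186), while NO vs DM gave 0.76 ± 0.27 (adjusted p = 0.0770, or 0.0457 with the replicate number as a block, and 0.00365 without NO replicate 1). The NO vs GS call was lost without GS replicates 1 or 3 or NO replicate 3 (0.0588, 0.0733 and 0.0515). *Slc19a2*, the thiamine transporter gene, averaged 1901 ± 171 in GS, 1781 ± 38 in DM and 2954 ± 369 in NO and rose by 0.72 and 0.63 in NO vs DM and NO vs GS. *Ak1*, the adenylate kinase gene, averaged 2412 ± 282, 3292 ± 434 and 4298 ± 620 and rose in NO vs GS (0.83), while NO vs DM gave 0.38 (limma adjusted p = 0.117). The exons of *Ephx1*, *Def6* and *Pltp* each overlap another annotated gene.

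The 3 NO replicates differed in level and kept a common order across the members. Replicate 2 was highest, replicate 3 next and replicate 1 lowest in 32 of 39 members (82.1%), an order found in 28.7% of the 18156 genes tested. The exceptions were *Trp53*, *Sesn1*, *Bax*, *Ei24*, *Rrm2b*, *Xpc* and *Ddb2*, which all belong to the 9 members that passed in neither NO comparison. Over the members, the median ratio to the DM mean was 1.32 in NO replicate 1, 2.84 in replicate 2 and 1.74 in replicate 3, against 0.993, 0.993 and 0.984 over all genes. The 3 NO values lay above the 3 DM values in 27 of 39 members, as in 18.1% of all genes. The order was found in all 27 of these members and in 68.4% of the 3281 genes with such values.

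For single members the replicates were far apart. *Mdm2* stood at 2.07, 7.10 and 3.03 times the DM mean in NO replicates 1, 2 and 3, *Perp* at 4.17, 20.4 and 10.0, *Tap1* at 6.01, 28.4 and 11.3, and *Cdkn1a* at 1.54, 2.96 and 2.23. *Pmaip1* and *Bbc3* were at 1.13 and 0.961 times the DM mean in replicate 1 and at 4.44 and 2.45 in replicate 2. The count of members that rose in NO vs DM was 28 without NO replicate 1, 17 without replicate 2 and 17 without replicate 3, and in NO vs GS it was 31, 22 and 23. The members past 2-fold in NO vs DM numbered 22, 12 and 16, and in NO vs GS 24, 11 and 15. Over all genes, those 2-fold higher numbered 1893, 628 and 754 in NO vs DM, against 1231 in the fit of all 9 samples. In NO vs GS they numbered 2308, 1226 and 1444, against 1830. The move of these counts is therefore not particular to the members. NO replicate 2 was also the library with the lowest sum of mESC markers, 57065 normalised counts against up to 93004 in the other NO samples, and the highest sum of the 10 fibroblast markers, 586. Within that list *Pdgfra*, *Col1a1* and *Twist2* were at their highest of the 9 samples in this library (170, 88 and 10) and *Pdgfrb* at its lowest (110). Its estimated depth, 14534000 reads, was close to the 14309000 of replicate 3 and below the 26115000 of replicate 1. The part of these features in the level of the members was not tested.

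**Figure D3:**
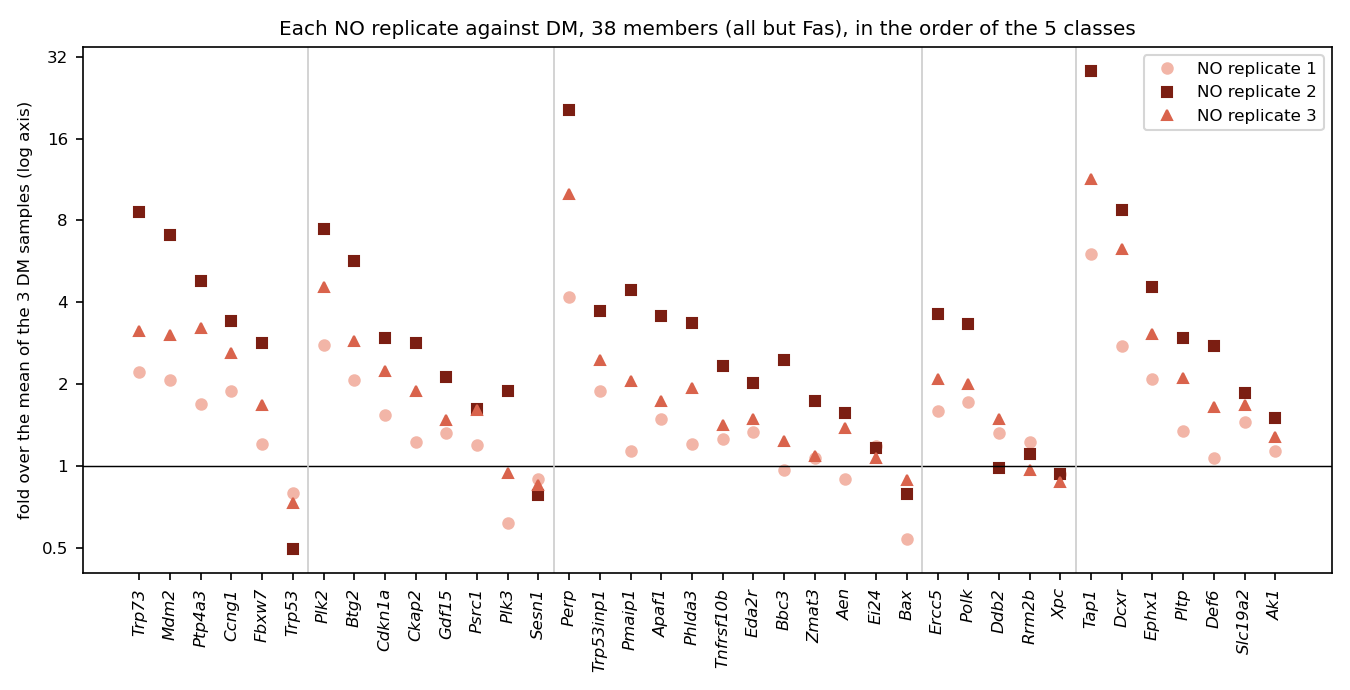
Normalised count in each NO replicate divided by the mean of the 3 DM samples (y axis, log scale) for 38 members (x axis, all but *Fas*, which is near 0 in DM), with grey lines between the 5 classes and the horizontal line at equality. The squares of replicate 2 lie highest and the circles of replicate 1 lowest for most genes of every class but repair, and the 3 points lie close together for *Sesn1*, *Ei24*, *Rrm2b* and *Xpc*.

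Levels can be compared between genes only per length, here per kilobase of annotated exons. On that scale *Trp53* ranked highest of the members in GS, with 2342 normalised counts per kilobase, and in DM, with 2901, and it stood at 1950 in NO. *Ccng1* ranked highest in NO with 3314, followed by *Trp53inp1* with 2054, *Bax* with 1964 and then *Trp53*. *Fas* was the lowest of the members in GS and DM, with 2.91 and 0.97 normalised counts per kilobase, and stood at 77.3 in NO. *Rrm2b* was the lowest in NO with 19.6. *Dcxr* moved from rank 17 in DM to rank 6 in NO, and *Perp* from rank 32 to rank 12.

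Genes that act on p53 were followed in a list of their own, kept apart from the 2 lists of targets. Their few calls are not read as a result about the regulators. Of 20 such regulators 19 passed the minimum, and 1 rose in NO vs DM, *Rchy1*, a ubiquitin ligase of p53, by 0.56 ± 0.16 (adjusted p = 0.0395), where 9.01% of all genes rose. The *Rchy1* call was lost in 7 of 9 fits with 1 sample left out, all but those without NO replicates 1 or 3, with adjusted p up to 0.104, and reached 0.0507 with the replicate number as a block. In NO vs GS 0 rose and 2 fell, where 13.4% of all genes rose and 6.64% fell. The deubiquitinase gene *Usp10* fell by 0.47 ± 0.14 (limma adjusted p = 0.0395). *Trp53bp1*, a protein recruited to broken DNA, fell by 0.46 ± 0.13 (adjusted p = 0.0268). The *Usp10* call was lost in 7 of 9 fits, all but those without DM replicate 3 or NO replicate 1 (adjusted p up to 0.122), and that of *Trp53bp1* without any 1 of the GS samples or NO replicate 3 (adjusted p up to 0.0998). *Mdm4*, the partner of Mdm2, gave 0.07 in NO vs DM (adjusted p = 0.823). The kinase genes *Atm*, *Atr*, *Chek1* and *Chek2* passed in none of the 3 comparisons. The regulators had a median log2 difference of -0.15 in NO vs DM and of -0.23 in NO vs GS. In NO vs GS 2 of 19 had a positive value, beside 8831 of all 18156 genes.

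A list of 20 further p53 targets outside the given set was also followed. This list too was chosen with earlier results of these data known, so it is not an outside check. Of these, 5 rose and 0 fell in NO vs DM, with a median of 0.38, beside 9.01% and 5.24% of all genes. In NO vs GS, 11 rose and 1 fell, with a median of 0.66, beside 13.4% and 6.64%. The 5 were *Sfn*, *Lif*, *Ppm1d*, *Ikbip* and *Trp53i11*, of which the last 3 were lost in 6, 8 and 7 of 9 fits with 1 sample left out, with adjusted p up to 0.0887, 0.119 and 0.141. The gene that fell, by 0.61, was the metabolic regulator *Tigar* (listed as *9630033F20Rik*), and its call was lost without any 1 of the GS samples (0.0514, 0.0529 and 0.0748). *Tigar* also fell in DM vs GS, by 0.60 (adjusted p = 0.0438, lost in 7 of 9 fits with 1 sample left out, up to 0.169, and 0.0577 with the replicate number as a block), and gave -0.02 in NO vs DM. *Sfn*, which encodes a protein that holds cells before mitosis, read 383, 431 and 381 in GS, 344, 266 and 337 in DM and 580, 1779 and 1021 in NO, and rose by 1.70 ± 0.31 in NO vs DM (adjusted p = 0.00700) and 1.35 ± 0.31 in NO vs GS. *Lif*, the gene of the cytokine that is added to GS medium, read 201, 283 and 163 in GS, 165, 199 and 193 in DM and 353, 884 and 492 in NO, and rose by 1.53 ± 0.30 in NO vs DM (adjusted p = 0.00968). Both had NO replicate 2 highest and replicate 1 lowest, as most members did. *Gadd45a*, a growth arrest and repair gene, read 69, 101 and 82 in GS, 259, 221 and 195 in DM and 243, 449 and 246 in NO. *Gadd45a* rose in DM vs GS (1.42 ± 0.26, adjusted p = 0.00645), while NO vs DM gave 0.42 ± 0.26 (adjusted p = 0.291). No other gene of this list passed both the test and 2-fold in NO vs DM. *Dram1*, a gene of autophagy, gave 1.33 there (adjusted p = 0.129) and passed without NO replicate 1 (1.83, adjusted p = 0.0319).

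**Figure D4:**
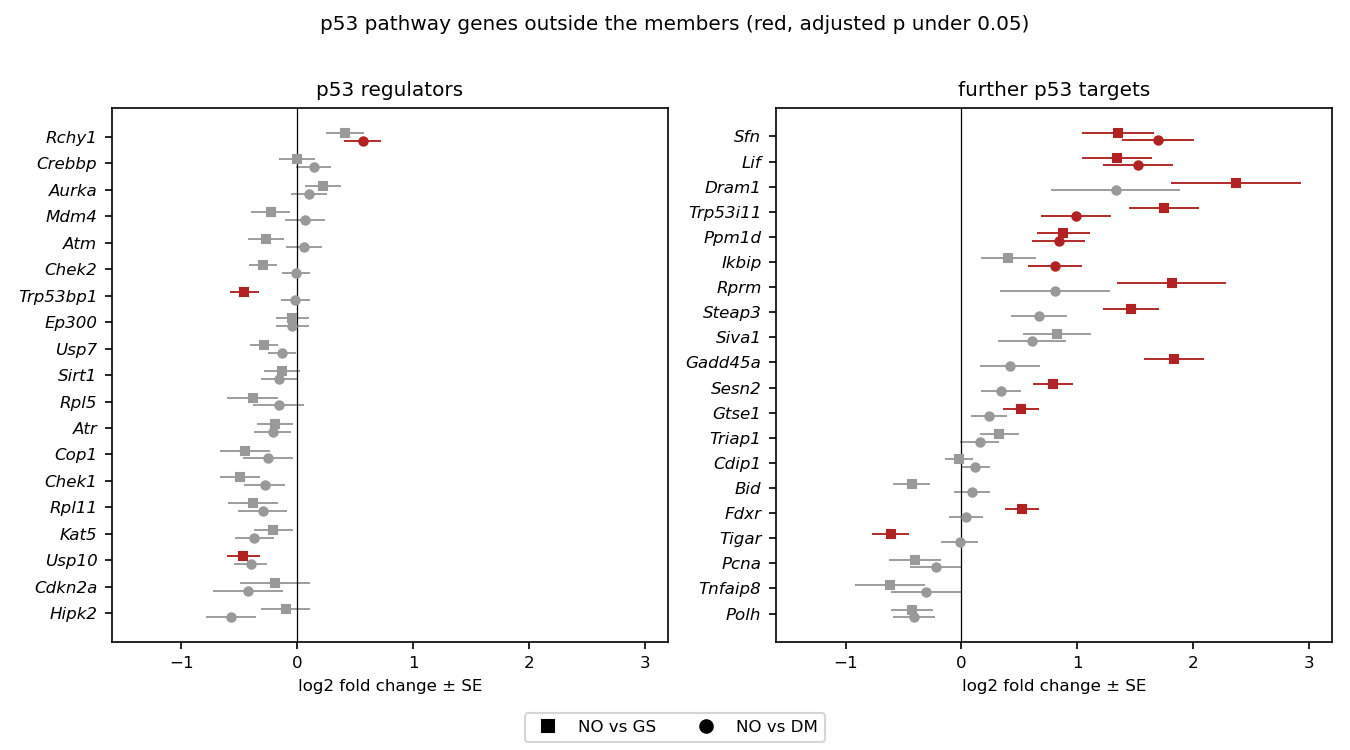
Fitted log2 difference (x axis) with its SE for 19 regulators of p53 (left) and 20 further targets (right), in NO vs GS (squares) and NO vs DM (circles), with red for an adjusted p under 0.05. The regulators lie within -0.57 and 0.56 of 0 in NO vs DM, and *Sfn* and *Lif* lie highest among the further targets at 1.70 and 1.53.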

How the data were processed

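Total RNA-Seq of 9 samples was analysed, with medium and replicate number taken from the labels. Per the methods and the submitters' processing notes, the authors removed ribosomal RNA, ran an Ion Torrent Proton, checked reads with FastQC 0.11.2, trimmed them with Reaper, aligned them to GRCm38 with STAR 2.4.0a, counted uniquely assigned reads over exons with featureCounts 1.4.5-p1 and normalised with DESeq2. Use of the strand was not given in the sources used here. The deposited values are a score per gene, namely DESeq2-normalised counts that the authors rounded to whole numbers, so no count model was fitted although the study used one. 1 further column of sums was not used.

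Values were tested as log2(value + 1) with limma 3.58.1 in R 4.3.3, with all 3 media in 1 fit, a mean-variance trend, two-sided tests and Benjamini-Hochberg adjustment over the 18156 genes with a mean above 5. A difference is a log2 fold change on that scale, which understates low genes. Rose and fell mean an adjusted p under 0.05. The fit was tested on simulated data first. Members past 2-fold in any comparison, and 7 core genes whatever their test (*Trp53*, *Mdm2*, *Cdkn1a*, *Ccng1*, *Bax*, *Bbc3* and *Pmaip1*), were named with every sample, and other members with means. Members and lists were chosen with earlier results of these data known.

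Samples of the same number deviated together in NO vs DM (correlations over genes of 0.16, 0.17 and 0.30), so there the blocked value is given where it changed a call, although the values reported come from the fit without a block. They did not in DM vs GS (-0.18, 0.02 and -0.23) or NO vs GS (-0.05, 0.05 and -0.11). Alternatives were another sample set, block, minimum, pseudocount, trend, weights and scaling, and leaving out each sample. Gene positions are those of GENCODE M21 on GRCm38, and promoter windows those of RefSeq.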

Additional observations from a re-analysis of the deposited data

How the results depend on the processing

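No member changed direction past the threshold under any alternative. Over all members, comparisons and alternatives, 2101 values kept their side of the threshold, 130 lost it and 31 gained it. Judged by the adjusted p alone, without a minimum fold change, calls held under every alternative for 16 of 24 members in NO vs DM and 15 of 27 in NO vs GS. That of *Cdkn1a* in DM vs GS held too. Fitting only the 6 samples compared gave 3 members higher, 2 lower and 2 past 2-fold in DM vs GS, and 16 higher in NO vs DM. Without a mean-variance trend 16 rose in NO vs DM and 18 in NO vs GS. Over all genes, those 2-fold higher in NO vs DM numbered 723 with the 6 samples and 897 without a trend, against 1231 in the main fit. In NO vs GS they numbered 1677 without a trend, against 1830. A minimum mean of 50 gave 1 lower member in NO vs GS. A minimum log2 fold change of 2 left 5 members in NO vs DM, 6 in NO vs GS and 0 in DM vs GS. Quantile normalisation moved the median of all genes to -0.115 in NO vs GS and the split of all genes past 2-fold from 1830 higher and 297 lower to 1304 and 629, while 26 members rose. Calls were also gained by *Sesn1* in NO vs GS with a minimum mean of 50 (0.0446), by *Gdf15* in NO vs DM with equal totals (0.0453), and with quantile normalisation by *Zmat3* in NO vs GS (0.047) and *Ak1* in NO vs DM (0.0488). The share of all genes past the adjusted p alone, or past a log2 fold change of 2, was not computed for the alternatives. The member counts under them are therefore not read as a result about the members. The causes of these changes were not tested.

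With the replicate number as a block, 25 members rose in NO vs DM, 26 in NO vs GS and 0 in DM vs GS, and 1 fell in DM vs GS. Those past 2-fold numbered 18, 16 and 1. Over all genes, 1232 were 2-fold higher in NO vs DM and 1804 in NO vs GS with the block, against 1231 and 1830 without it. In DM vs GS 212 genes were 2-fold lower, against 230. The block took *Gdf15* in NO vs GS to an adjusted p of 0.052, and changed no member's call beyond those of *Gdf15*, *Pmaip1*, *Tnfrsf10b* and *Def6*. Outside the members it took *Usp10* in NO vs GS to 0.0552, *Trp53i11* in NO vs DM to 0.0655 and *Rchy1* in NO vs DM to 0.0507. Block and the 6 samples together, an alternative chosen after seeing the data, gave 1 lower member in NO vs DM, *Trp53*.

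Leaving out 1 sample, which lowers the number of samples in the fit, gave 0 to 2 higher, 1 to 2 lower and 1 to 2 past 2-fold in DM vs GS, 18 to 31 higher, 0 to 1 lower and 11 to 24 past 2-fold in NO vs GS, and 16 to 28 higher, 0 to 1 lower and 12 to 22 past 2-fold in NO vs DM. Over all genes, the number 2-fold higher moved as well, and ran from 1226 to 2308 in NO vs GS and from 628 to 1893 in NO vs DM. With 14309000 to 27085000 estimated reads per sample, depth limits the low genes, above all *Fas*.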
